A study of Gallus gallus with 12 samples.

Results

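The effect of a 1 h light pulse that was shared by 3 circadian times was measured in the chick pineal gland. The comparison set all 6 arrays of light-pulsed glands against all 6 arrays of glands kept in the dark, with circadian time (CT) as a blocking factor, and it used all 12 arrays of the series. Males aged 8 days had lived in 12 h of light per day for 7 days and then in constant darkness for a day. The light groups received the pulse from CT6, in the subjective day, from CT14, early in the subjective night, or from CT22, late in it, and the dark group of each time received none. Glands were taken as the pulse ended. Each of the 6 groups held 2 arrays, and each array was hybridised with labelled total RNA of 6 pooled glands, so differences between single birds cannot be seen. The samples are whole glands, in which fewer cells of a type and less RNA per cell cannot be told apart. The series' design text calls the 2 samples of a group biological samples, but does not say whether their birds were housed or dissected apart. The p-values of the blocked fit thus measure the spread between these pools, together with differences of the light response between times.

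The bird pineal gland is a photoreceptive endocrine organ. Its pinealocytes detect light through their own opsins, keep a circadian clock, and make melatonin at night from serotonin through the enzymes AANAT and ASMT. Light reaching the gland can shift the clock and lower melatonin output, and cAMP, calcium and transcription factors of the basic leucine zipper family take part in these responses.

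The arrays held RNA of this tissue. ASMT, which makes the last step of melatonin synthesis, had normalised intensities of 6400 to 7540 on light arrays and 5890 to 7590 on dark arrays, and the pineal opsin gene OPNP had 1040 to 1890 and 1030 to 1610. Markers of other cell types were present as well, and their levels overlapped between light and dark. Over 8 erythrocyte genes the summed intensity was 7570 to 10600 on light arrays and 7970 to 11600 on dark arrays. Over 12 genes of fibroblasts and meninges it was 10600 to 11300 and 9530 to 11100, and over 7 choroid plexus and ependyma genes 11800 to 13300 and 11800 to 13500. Among 91 tested markers of 10 cell types, pinealocytes included, the limma fit called 0. That count says little where 1.78% of all genes were called. Of the 91 markers, 12 (13.2%) had an unadjusted p under 0.05, against 14.1% of all genes tested. No marker list lay wholly at the floor of the scale. The 3-prime over 5-prime actin ratio, which increases as RNA breaks down, was 3.09 to 4.23 on light arrays and 3.89 to 4.67 on dark arrays, and the part this measure has in the results was tested only as a covariate.

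Light raised more genes than it lowered across the 3 times. After Benjamini-Hochberg adjustment over 23063 probe sets at a threshold of 0.05, limma called 236 probe sets higher (1.02% of those tested) and 107 lower (0.464%), or 1.49% in either direction. At the level of genes, with the brightest tested probe set standing for each of 10406 genes, 136 were higher (1.31%) and 49 lower (0.471%), or 1.78% in either direction. Their sizes were modest, with a median log2 change of 0.51 among the raised and -0.45 among the lowered genes. Only 19 raised and 2 lowered genes changed by over 1 on the log2 scale. The share of raised probe sets among the calls depended on the scaling. Centring arrays on their medians in place of quantile normalization gave 323 higher and 65 lower, and the values as deposited gave 159 and 44. With the actin ratio as a covariate 146 were higher and 112 lower, and 123 of the 236 and 51 of the 107 kept their call.

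Called genes had 1 direction at all 3 times, which the fit itself favours. Because a response that differs between times enlarges the error of the blocked fit, probe sets called by it tend to move alike at all times. All 185 called genes had the same sign at CT6, CT14 and CT22. Of all genes tested 14.4% were higher in light at all 3 times and 14.2% lower. In 123 of the 136 raised genes both light arrays lay above both dark arrays at each time, a pattern found in 2.63% of all genes tested, and together with the call in 1.18%. In 44 of the 49 lowered genes both light arrays lay below both dark arrays at each time, against 1.7% of all genes, and 0.423% with the call. Among probe sets, 210 of the 236 raised (0.911% of all tested) and 96 of the 107 lowered (0.416%) did not overlap in this way, against 2.23% and 1.49% of all probe sets whether called or not. A stricter pattern, all 6 light arrays above all 6 dark arrays whatever the time, held for 85 genes, called or not (0.817% of those tested), and 49 of them were among the raised genes. All 6 light arrays lay below all 6 dark arrays for 48 genes (0.461%), of which 18 were among the lowered ones. The size of the response was less uniform than its sign: a moderated F test found that it differed between times for 21 raised and 2 lowered genes (1.82% of all genes passed that test).

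A time left out of the fit gave a check on samples whose values did not enter that fit. Raised probe sets carried their direction over to the left-out time. Of 145 probe sets called higher on CT14 and CT22 alone, 94.5% were also higher in light at CT6, where 50.1% of all tested probe sets were. Of 134 called on CT6 and CT22, 94.8% were higher at CT14 (50.1% of all), and of 160 called on CT6 and CT14, 85.6% were higher at CT22 (48.8% of all). Their median differences at the left-out time were 0.36, 0.61 and 0.43 on the log2 scale.

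Lowered probe sets carried their sign over at CT6, whereas at CT14 and CT22 the shares with the same sign lay closer to those of all probe sets. Of 71 probe sets called lower on CT14 and CT22, 85.9% were lower at CT6 (49.9% of all), with a median difference of -0.30. Of 104 called lower on CT6 and CT22, 57.7% were lower at CT14 (49.8% of all), with a median of -0.07. Of 81 called lower on CT6 and CT14, 46.9% were lower at CT22, below the 51.2% of all probe sets, with a median of 0.05. Both light arrays lay below both dark arrays at the left-out time for 60.6% of the lowered calls at CT6 (20% of all probe sets), 43.3% at CT14 (21.5% of all) and 40.7% at CT22 (24.7% of all). Several probe sets of 1 gene enter these counts. All arrays, those of the left-out time included, were normalised together and used in the filter on brightness.

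**Figure D1:**
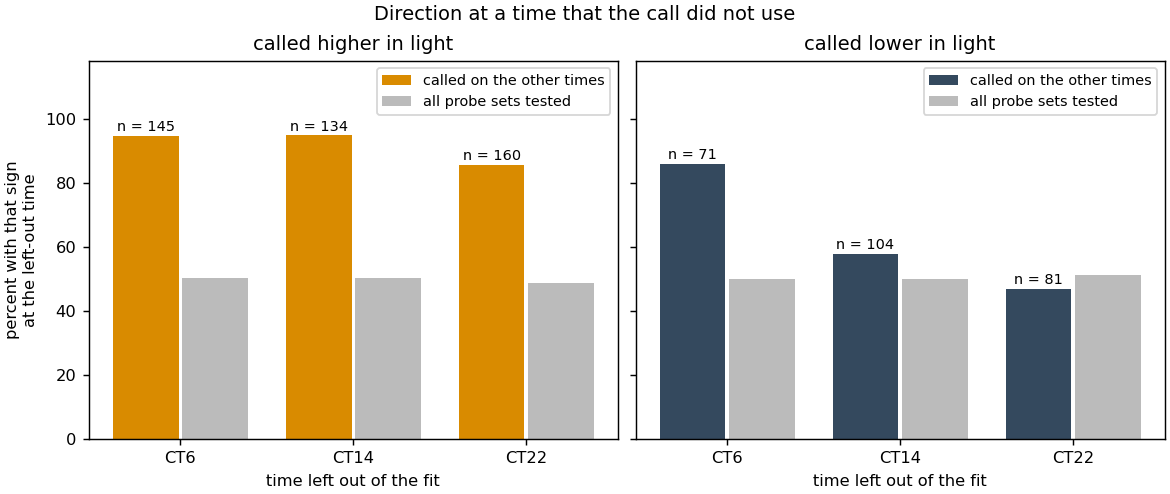
Bars give the percent of probe sets whose light minus dark difference at the time left out of the fit (x axis) had the direction called on the other times, for calls higher in light (left panel, orange) and lower in light (right panel, blue), with the number called above each bar. Grey bars give the same for all probe sets tested. Calls higher in light kept their direction in 85.6% to 94.8% of cases, and calls lower in light in 85.9%, 57.7% and 46.9% at CT6, CT14 and CT22.

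The leading increase belonged to RAD54L2, which encodes a helicase-like protein of the SNF2 family. Its normalised intensity was 299 and 392 in light against 68.1 and 61.2 in the dark at CT6, 312 and 364 against 44.3 and 47.6 at CT14, and 267 and 293 against 71.7 and 52 at CT22. All 6 light arrays were thus above all 6 dark arrays, with no light array under 267 and no dark array over 71.7. The blocked fit gave a log2 change of 2.49 ± 0.12 (SE, adjusted p = 5.25e-08), a 5.63-fold increase with a 95% interval from 4.7 to 6.74. A further, dim probe set of the gene did not pass (0.42 ± 0.41, adjusted p = 0.728).

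A pair of RING-finger genes of the LONRF family, whose proteins join an E3 ligase domain to a LON domain, followed. LONRF1 had 185 and 169 in light against 62.7 and 44.5 in the dark at CT6, 181 and 190 against 60.3 and 58.7 at CT14, and 142 and 164 against 53.1 and 43.3 at CT22. It was the most even of the leading increases, with differences of 1.75, 1.64 and 1.67 on the log2 scale at the 3 times and a fitted change of 1.68 ± 0.10 (adjusted p = 2.28e-07). Its second probe set rose by 2.09 ± 0.21. LONRF3 ranged from 114 to 278 (median 198) on light arrays and from 29.3 to 51.8 (median 35.9) on dark arrays, a log2 change of 2.33 ± 0.19 (adjusted p = 1.30e-05). Its light and dark arrays did not overlap, whichever time they came from.

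CCSAP, a gene of a protein of centrioles and cilia, rose by 1.68 ± 0.20, with 175 to 279 on light and 28.2 to 134 on dark arrays. LSG1, a GTPase of the late assembly of the large ribosomal subunit, rose by 1.59 ± 0.16, with 414 to 538 on light and 86 to 253 on dark arrays. For both, all light arrays lay above all dark arrays. The response of LSG1 differed between times (1.42, 2.34 and 1.01 at CT6, CT14 and CT22, adjusted p = 0.00209). Its other 2 probe sets gave -0.06 and -0.14 and did not pass. Among the other 26 tested genes of ribosome biogenesis none was called, where 1.78% of all genes were.

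**Figure D2:**
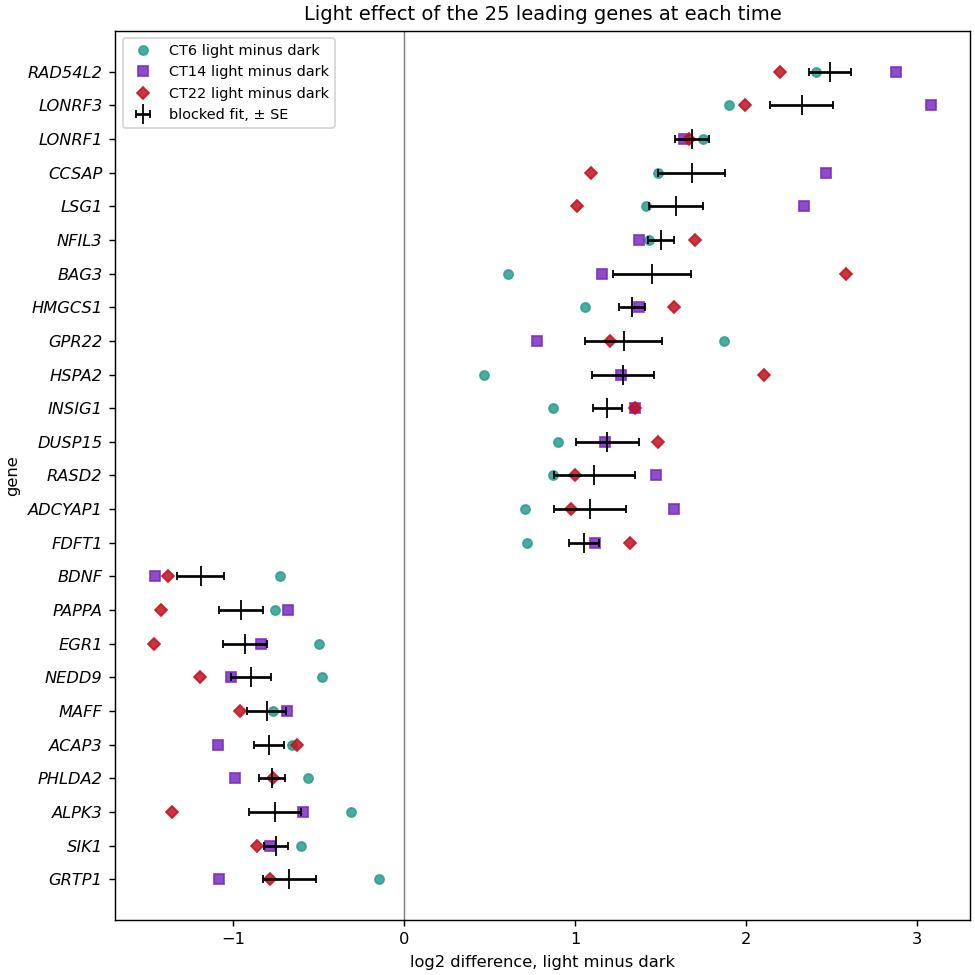
The light minus dark difference (x axis, log2) of the 25 leading genes (y axis), at CT6 (circles), CT14 (squares) and CT22 (diamonds), with the estimate of the blocked fit and its standard error (black). RAD54L2 leads the 15 increases at 2.49 and BDNF the 10 decreases at -1.19. LONRF1 has nearly the same difference at all times, and BAG3 and HSPA2 are largest at CT22.

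Several cholesterol synthesis genes rose. The enzymes of this pathway are commonly controlled by SREBP2, a membrane-bound transcription factor that the INSIG proteins hold back when sterols are plentiful. In the sterol list, which covers synthesis, sensing and uptake, 10 of 23 tested genes rose and 0 fell (43.5%, against 1.31% higher and 0.471% lower of all genes), and in each of the 10 the light arrays lay above the dark arrays at every time. The list had a median log2 change of 0.20, against -0.01 over all genes tested.

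HMGCS1, the enzyme that makes HMG-CoA, had 706 and 661 in light against 321 and 336 in the dark at CT6, 1110 and 1170 against 474 and 408 at CT14, and 739 and 697 against 240 and 241 at CT22. The replicate arrays differed little, and no dark array reached the lowest light array. It rose by 1.34 ± 0.08 (adjusted p = 2.28e-07). FDFT1, squalene synthase, rose by 1.05 ± 0.09 (256 to 516 on light arrays, 123 to 235 on dark arrays). Squalene epoxidase, SQLE, rose by 0.79 ± 0.08, and LSS, which forms the sterol ring system, by 0.52 ± 0.11. The call of LSS was lost under 16 of 25 alternatives and that of SQLE under 1.

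Enzymes of later steps were among the called genes too. NSDHL rose by 0.99 ± 0.09, HSD17B7 by 0.58 ± 0.10 and MSMO1 by 0.55 ± 0.06, 3 enzymes that act together on the C4 methyl groups of sterols. Of 15 tested synthesis enzymes 7 rose. FDPS gave 0.44 ± 0.14 (adjusted p = 0.164), while MVD, CYP51A1, DHCR7 and PMVK had negative values between -0.49 and -0.21 that did not pass.

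The sensor INSIG1, itself a sterol-regulated gene, rose by 1.19 ± 0.08 (adjusted p = 3.17e-06), and its 3 probe sets all passed. Its intensity was 291 and 280 in light against 155 and 158 in the dark at CT6, 471 and 543 against 210 and 187 at CT14, and 344 and 341 against 136 and 132 at CT22. INSIG2, SREBF2 and SCAP, which code for the other parts of the sensing system, had log2 changes of 0.01, 0.03 and 0.01. Of the transport genes STARD4 rose by 0.64 ± 0.07 and NPC1 by 0.48 ± 0.08. Fatty acid synthesis, a pathway under the related factor SREBP1, had 0 of 14 genes called, where 1.78% of all genes were. Of the 14 genes 2 had an unadjusted p under 0.05 (14.1% of all genes did), and the values lay between -0.24 and 0.21.

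**Figure D3:**
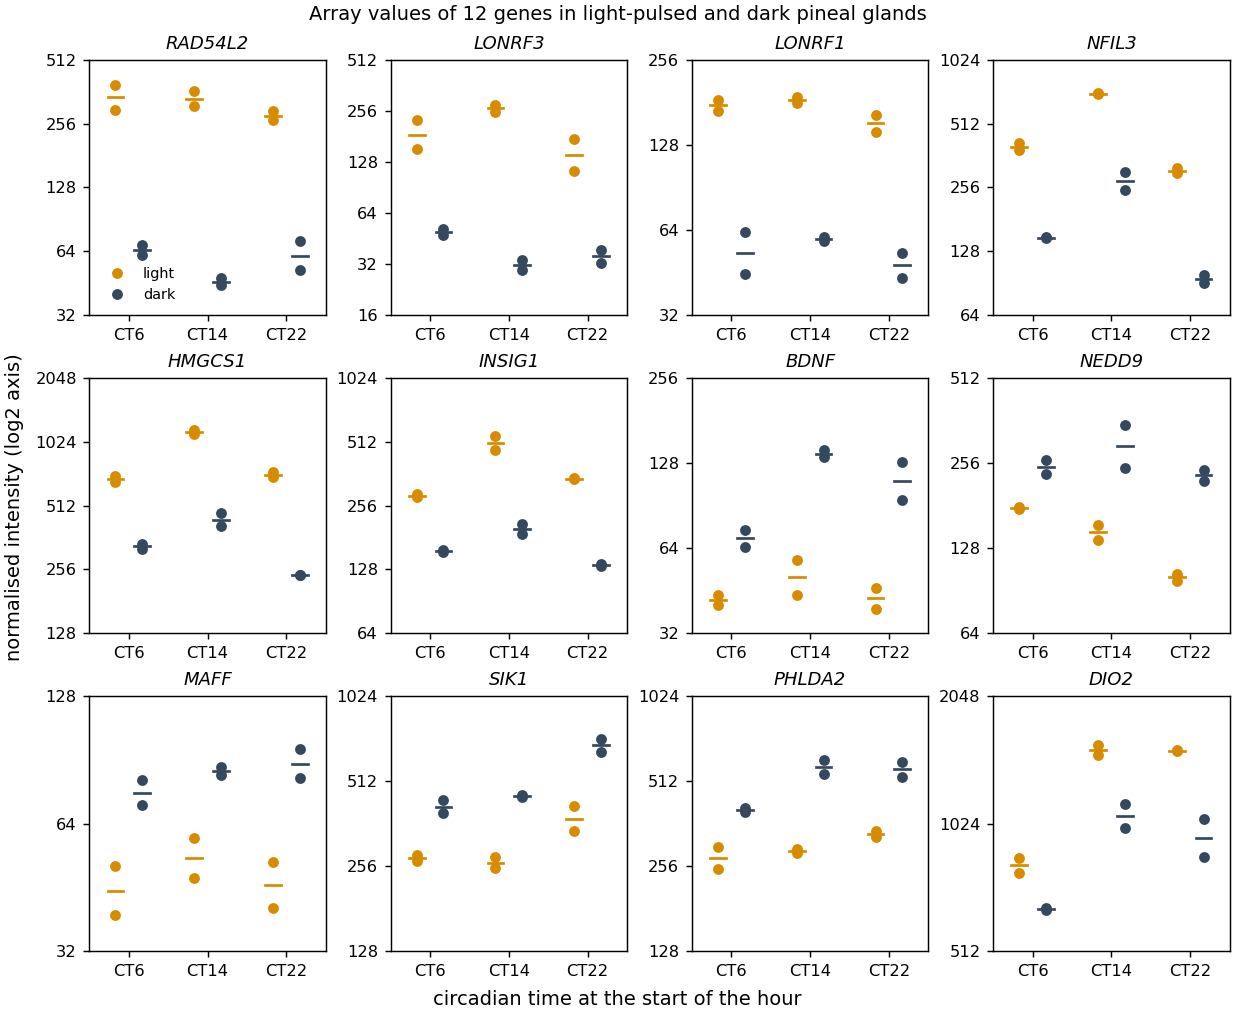
Normalised intensity (y axis, log2 scale) of 12 genes on every array, by circadian time (x axis), with light arrays in orange left of dark arrays in blue and a bar at the mean of each pair on the log scale. The first 6 genes and DIO2 are higher in light at each time, and BDNF, NEDD9, MAFF, SIK1 and PHLDA2 are lower in light at each time.

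Heat shock genes made up the other large group. Cytosolic chaperones refold damaged proteins, and HSF factors induce many of them. The list also held co-chaperones, chaperonins, with the mitochondrial HSPD1 among them, and 2 regulators. Of 40 tested genes 16 rose and 0 fell (40%, against 1.31% higher and 0.471% lower of all genes), with a list median of 0.20. An unadjusted p under 0.05 was found for 27 of the 40, and for 14.1% of all genes tested. HSPA2, a 70 kDa heat shock protein gene, rose by 1.28 ± 0.18. It had 1240 and 1420 in light against 968 and 947 in the dark at CT6, 2070 and 2230 against 849 and 938 at CT14, and 6340 and 6300 against 1450 and 1490 at CT22. Light was above dark at every time, but the 2 light arrays of CT6 lay below the 2 dark arrays of CT22. The constitutive form HSPA8 rose by 0.46 ± 0.06 and HSPA4L by 0.58 ± 0.08.

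BAG3, a co-chaperone that links HSP70 to autophagy, rose by 1.45 ± 0.23, with 554 to 3260 on light and 348 to 541 on dark arrays. HSP90AA1, the inducible HSP90, rose by 0.61 ± 0.05 (adjusted p = 3.14e-05), while HSP90AB1 gave -0.07 ± 0.09. The HSP90 co-chaperone genes CHORDC1, AHSA1 and FKBP4 rose by 0.99, 0.54 and 0.42. Of the J-domain proteins, which deliver clients to HSP70, DNAJA4 rose by 0.92, DNAJA1 by 0.81 and DNAJB4 by 0.25. The mitochondrial chaperonin gene HSPD1 rose by 0.55, and of the cytosolic chaperonin subunits TCP1, CCT4 and CCT2 rose by between 0.21 and 0.25. The calls of these 3 small changes were lost under 17, 11 and 18 of 25 alternatives, and that of DNAJB4 under 19, while those of DNAJA4 and DNAJA1 were lost under 1.

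Part of the heat shock group responded unevenly. HSPB8, a small heat shock protein gene, passed with 1.38 ± 0.31 (adjusted p = 0.0373), but its call was lost under 15 of 24 alternatives. At CT14 its light arrays, at 40.9 and 26.5, overlapped the dark arrays at 30.2 and 20.8. HSPB9 gave 1.90 ± 0.62 and did not pass (adjusted p = 0.183), with differences of 0.14, 0.36 and 5.21 at CT6, CT14 and CT22. HSPH1 gave 1.61 ± 0.38 (adjusted p = 0.0505), just outside the threshold, and its second probe set passed with 1.64 ± 0.25 (adjusted p = 0.00231). That second probe set was dim, with a light mean of 4.78 and a dark mean of 3.14 (log2). Its dark mean lay below the cut of 3.73 that only the mean of light and dark together had to exceed. Without the block for circadian time 1 of the 40 genes was higher.

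Some genes of the endoplasmic reticulum (ER) stress response rose too. Of 34 tested genes 5 rose and 0 fell (14.7%, against 1.31% higher and 0.471% lower of all genes). The list median was 0.06, and 4 of the 5 code for chaperones. HSPA5, the main HSP70 of the ER, rose by 0.81 ± 0.10 (1930 to 5510 on light arrays, 1320 to 2520 on dark arrays). HERPUD1, of ER-associated degradation, rose by 0.97 ± 0.19 with all of its 3 probe sets past the threshold. DNAJB9 rose by 0.54, SDF2L1 by 0.53 and HSP90B1 by 0.37. The calls of SDF2L1 and HSP90B1 were lost under 16 and 15 of 25 alternatives. Those of HERPUD1, DNAJB9 and HSPA5 were lost under 6, 5 and 1. At CT6 HSP90B1 had 1760 and 1910 in light against 1850 and 1700 in the dark, so its groups overlapped there. XBP1, a regulator of this response, gave -0.15 ± 0.05 (adjusted p = 0.160). The count fell to 3 without the second CT14 dark array, the first CT14 light array or any single CT22 array, to 2 with the actin ratio as a covariate and to 2 without CT22.

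Among ATF4 targets, genes of the response to amino acid shortage, 1 of 13 rose (7.69%, against 1.78% of all genes called) and the list median was -0.10. That gene was CHAC1, which breaks down glutathione, at 1.38 ± 0.23 (adjusted p = 0.00616). Its light and dark arrays overlapped at CT14, where light gave 439 and 286 and the dark 204 and 301.

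**Figure D4:**
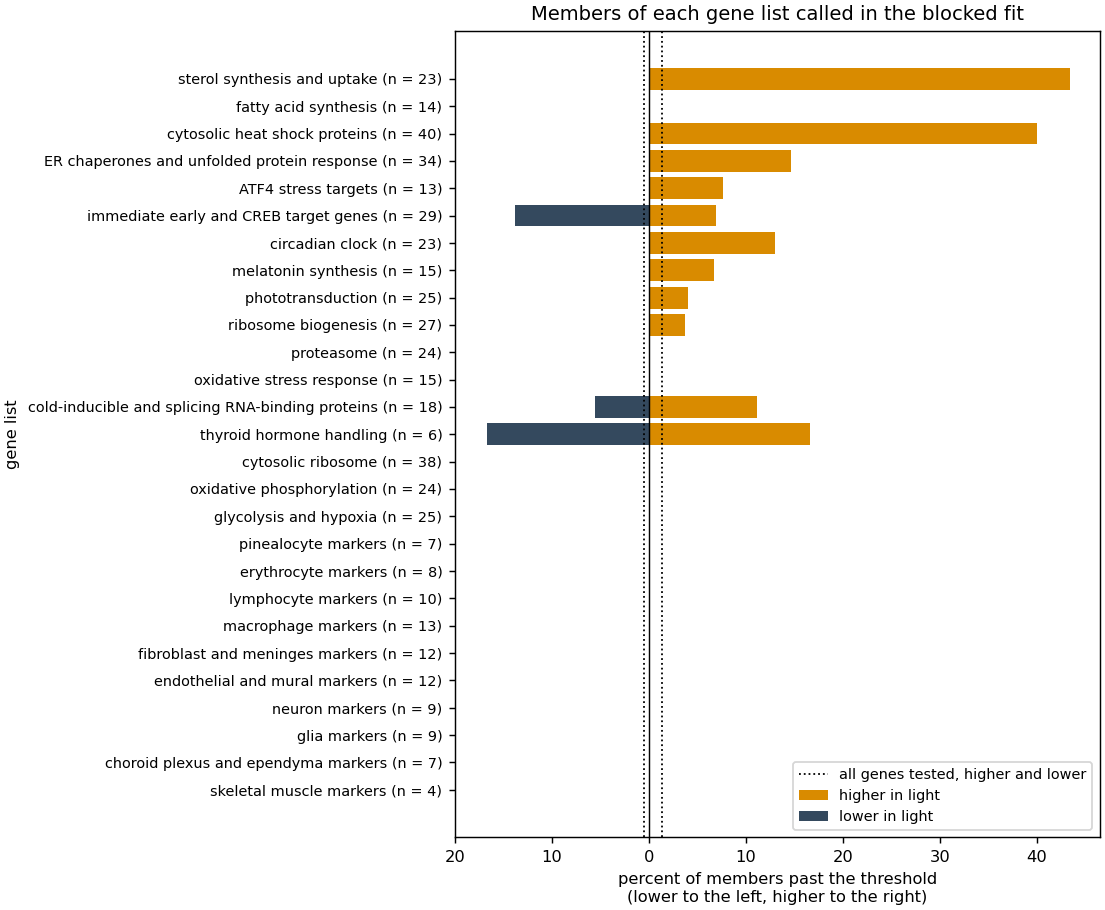
Percent of the tested members of each gene list (y axis, number tested in brackets) past the threshold in the blocked fit, higher in light to the right in orange and lower in light to the left in blue. Dotted lines mark the shares of all genes tested, 1.31% higher and 0.471% lower. Sterol and heat shock genes have the largest shares of raised members, 43.5% and 40%, and no marker list has a called member.

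Of the circadian clock, 3 of 23 tested genes rose and 0 fell (13%, against 1.78% of all genes called). The list median was 0.13. NFIL3, a basic leucine zipper repressor that competes with the PAR factors for D-box elements, rose at the 3 times by 1.43, 1.37 and 1.70 on the log2 scale (SE of the fitted change 0.07, adjusted p = 5.25e-08). Its intensity was 416 and 383 in light against 149 and 147 in the dark at CT6, 715 and 708 against 302 and 250 at CT14, and 299 and 316 against 90.1 and 98.8 at CT22. The dark level differed between times, and the highest dark value, 302 at CT14, slightly exceeded the lowest light value, 299 at CT22. Light raised it 2.83-fold (95% interval 2.54 to 3.16).

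Both cryptochrome genes CRY1 and CRY2, repressors of the CLOCK complex, rose by a small amount. CRY1 changed by 0.28 ± 0.06 (adjusted p = 0.0227) and had 1130 and 1230 in light against 908 and 929 in the dark at CT6, 988 and 1060 against 749 and 913 at CT14, and 464 and 473 against 417 and 412 at CT22. CRY2 changed by 0.27 ± 0.06 (adjusted p = 0.0475). The light arrays of both genes were above the dark arrays at every time, but the differences were small, and neither call was kept with the values as deposited. PER2 gave 0.71 ± 0.18 and did not pass (adjusted p = 0.0780), although its arrays did not overlap at any time either. BHLHE40 and BHLHE41 were higher in light at CT6 and CT14 and lower at CT22 by 0.16 and 0.27 on the log2 scale, and neither passed (adjusted p = 0.102 and 0.281).

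Signalling genes of dim probe sets were among the leading increases. ADCYAP1, which encodes PACAP, a neuropeptide that raises cAMP, changed by 1.09 ± 0.21 (adjusted p = 0.0168). A dimmer probe set of the gene gave 0.91 ± 0.31 and did not pass (adjusted p = 0.198). The intensity of ADCYAP1 on the brighter one was 48.2 and 57.3 in light against 31.6 and 32.8 in the dark at CT6, 45.9 and 41.6 against 12.9 and 16.6 at CT14, and 58.6 and 24.2 against 17.8 and 20.6 at CT22. The 2 light arrays of CT22 differed widely, and the call was lost under 9 of 24 alternatives, among them those without either CT14 light array. GPR22, an orphan receptor gene, changed by 1.29 ± 0.22 (25.4 to 55.9 on light arrays, 11.3 to 20.9 on dark arrays), and lost its call only without CT6. DUSP15, a dual-specificity phosphatase gene, changed by 1.19 ± 0.18 (33 to 59.1 on light arrays, 14.2 to 26.6 on dark arrays). RASD2, a small GTPase gene, changed by 1.11 ± 0.24 (adjusted p = 0.0275), with a dark mean of 3.60 (log2), below the cut of 3.73 that only the mean of light and dark together had to exceed. Its call was lost under 14 of 24 alternatives, including 9 that each left out 1 array.

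Of 7 tested cAMP pathway genes in the melatonin list 1 rose, the adenylyl cyclase ADCY1, by 0.64 ± 0.14. From the list of CREB target genes the phosphodiesterases PDE10A and PDE4D rose by 0.81 ± 0.15 and 0.37 ± 0.08. PDE10A rose little at CT6, with 165 and 181 in light against 159 and 162 in the dark, and its response differed between times (adjusted p = 0.00844). The calls of PDE4D and ADCY1 were lost under 17 and 20 of 25 alternatives. Of 6 tested genes of the melatonin enzymes 0 passed, a count that says little where 1.78% of all genes were called. AANAT gave -0.31 ± 0.12 (adjusted p = 0.277), with -0.24, 0.14 and -0.83 at CT6, CT14 and CT22. In phototransduction 1 of 25 genes was called (4%, against 1.78% of all genes). It was PDE6B, a subunit of the rod phosphodiesterase, which rose by 0.37 ± 0.08. PDE6B overlapped at CT6, where light gave 168 and 158 and the dark 114 and 159, and its call was lost under 20 of 25 alternatives.

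Among the lowered genes were several that activity or cAMP commonly induces. BDNF, a neurotrophin, fell by 1.19 on the log2 scale (SE 0.14, adjusted p = 3.22e-04). It had 40.2 and 43.6 in light against 74.4 and 64.5 in the dark at CT6, 58.1 and 43.8 against 142 and 135 at CT14, and 46.3 and 38.9 against 129 and 94.6 at CT22. Light values stayed near one level at all times while dark values were higher at night, and no light array reached the lowest dark array. EGR1, an early response zinc finger gene, fell by 0.93 (443 to 671 on light arrays, 820 to 1460 on dark arrays), and again the groups did not overlap.

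SIK1, the salt-inducible kinase that holds back CREB coactivators, fell by 0.75 (SE 0.07, adjusted p = 4.23e-05). It had 267 and 280 in light against 438 and 394 in the dark at CT6, 253 and 275 against 459 and 449 at CT14, and 418 and 341 against 652 and 721 at CT22. Its dark level was highest at CT22, where light arrays were also highest. MAFF, a small Maf factor, fell by 0.80 (38.9 to 59.1 on light arrays, 70.8 to 95.9 on dark arrays) with similar differences of -0.77, -0.69 and -0.96 at the 3 times.

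The list of immediate early and CREB target genes did not move in 1 direction as a whole. Of 29 tested genes 4 fell, those just named, and 2 rose, PDE10A and PDE4D (20.7%, against 1.78% of all genes called). The list median was -0.01, equal to that of all genes at 2 decimals. Still, 15 of the 29 had an unadjusted p under 0.05, against 14.1% of all genes tested. JUN (-0.07 ± 0.07), CREM (-0.17 ± 0.06, adjusted p = 0.190) and DUSP1 (0.26 ± 0.07, adjusted p = 0.114) did not pass. DUSP8 gave -1.11 ± 0.32 (adjusted p = 0.118).

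Other leading decreases lay outside that list. NEDD9, a scaffold protein of focal adhesions, was the best covered, since all 4 of its tested probe sets fell, by 0.67 to 1.17 on the log2 scale. The one that stands for the gene had 176 and 179 in light against 263 and 234 in the dark at CT6, 155 and 137 against 349 and 247 at CT14, and 104 and 98.1 against 242 and 222 at CT22. PHLDA2, a small pleckstrin-homology protein gene, fell by 0.77 (251 to 341 on light arrays, 397 to 609 on dark arrays, adjusted p = 9.09e-05), and its second probe set fell by 0.79. ACAP3, an ARF GTPase-activating protein gene, fell by 0.79 (87.8 to 129 on light arrays, 134 to 278 on dark arrays). Of its 3 dimmer probe sets, 1 also fell (by 0.68), and the others gave -0.63 (adjusted p = 0.0868) and 0.78 (adjusted p = 0.496). On the probe sets that stand for these 3 genes no light array reached the lowest dark array.

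PAPPA, a metalloprotease that cleaves IGF-binding proteins, fell by 0.95 (51 to 117 on light arrays, 96.1 to 189 on dark arrays). ALPK3, an alpha-kinase gene, fell by 0.75 and GRTP1, a TBC-domain gene, by 0.67. At CT6 GRTP1 had 51.2 and 61.4 in light against 61.5 and 62.7 in the dark, so the lowest dark value exceeded the highest light value by little. The calls of ALPK3 and GRTP1 were lost under 13 and 17 of 25 alternatives.

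Of the deiodinase genes, which set local thyroid hormone, 1 rose and 1 fell, the fall being the less certain. DIO2, the activating enzyme, rose by 0.52 ± 0.07 (adjusted p = 7.30e-04), with 851 and 782 in light against 647 and 639 in the dark at CT6, 1490 and 1570 against 998 and 1140 at CT14, and 1530 and 1520 against 856 and 1050 at CT22. DIO3, the inactivating enzyme, fell by 1.53 (SE 0.32, adjusted p = 0.0268). Its fall was uneven, with -1.20, -2.98 and -0.41 at the 3 times, and at CT22 the light arrays (87.8 and 106) overlapped the dark ones (92.9 and 175). The call of DIO3 was lost under 13 of 25 alternatives, with estimates between -2.09 and -0.79. Of 6 tested genes of thyroid hormone handling these were the only 2 called (33.3%, against 1.78% of all genes).

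In a list of cold-inducible and splicing RNA-binding proteins 2 of 18 genes rose and 1 fell (16.7%, against 1.78% of all genes called). The kinases CLK4 and CLK1, which phosphorylate splicing factors, rose by 0.32 ± 0.05 (adjusted p = 0.00405) and 0.27 ± 0.06. The call of CLK1 was lost under 16 of 25 alternatives and that of CLK4 under 2. The gene that the reference calls RBM3, with CIRBP as an older name, a cold-inducible RNA-binding protein gene, fell by 0.30 (adjusted p = 0.0249). RBM3 had 2970 to 4390 on light arrays and 4220 to 5210 on dark arrays. Its call was lost under 12 of 25 alternatives. Neither median centring nor the deposited values kept it, and leaving out CT6 or CT22 removed it too.

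The remaining 6 lists, cell type markers aside, were grouped because the limma fit called 0 of their members. The lack of calls is thus how they were picked, not a result about them, and 1.78% of all genes tested were called. Of their 140 tested genes 19 (13.6%) had an unadjusted p under 0.05, against 14.1% of all genes. The lists were fatty acid synthesis, the proteasome, the oxidative stress response, the cytosolic ribosome, oxidative phosphorylation, and glycolysis and hypoxia. Their medians lay between -0.01 and 0.06.

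**Figure D5:**
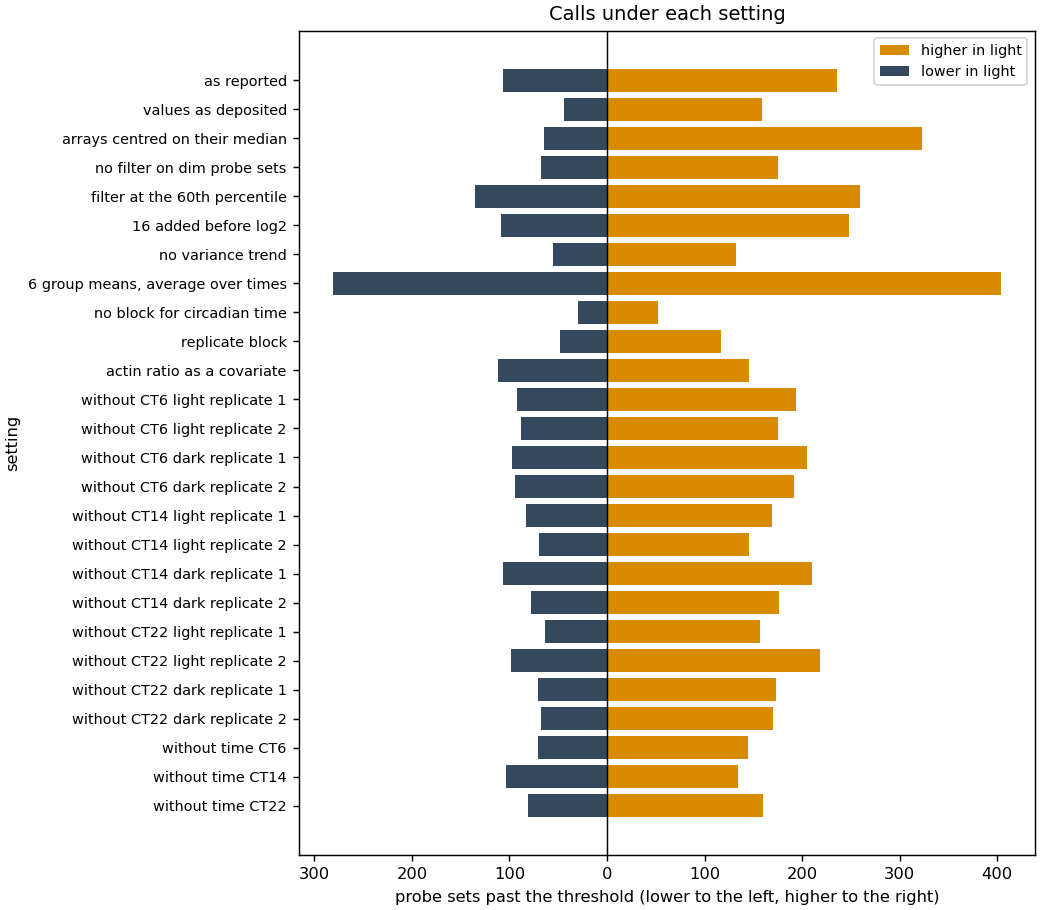
Number of probe sets past the threshold (x axis, higher in light to the right in orange, lower in light to the left in blue) as reported and under each alternative setting (y axis). The counts as reported are 236 higher and 107 lower. They are smallest without a block for circadian time, at 52 and 30, and largest when the spread is taken within the 6 groups, at 404 and 281.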

How the data were processed

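The authors deposited 1 linear intensity per probe set and array. How they were summarised and scaled is not given in the sources used here. Per the labels' protocols, 9 micrograms of total RNA from 6 glands were labelled with the one-cycle kit. Of 38535 probe sets 96 were controls. The platform annotation supplied with the series named 1 gene for 27168 of the others, several for 177 and none for 11094. Intensities were quantile normalized, which hides any shift common to most genes. Values under 1 were set to 1, log2 was taken, and the 23063 probe sets brighter on average than the 40th percentile (log2 3.73) entered the test. No detection calls were used. limma 3.58.1 in R 4.3.3 fitted light plus circadian time (8 residual degrees of freedom, variance trend), with Benjamini-Hochberg adjustment. The fit was tested on simulated data. A moderated F test on the 6 group means gave time dependence. Time left out, array left out, scaling, filter, model and actin ratio were alternatives. Precision is limited by the number of arrays.

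The 25 leading genes were the 15 largest increases and 10 largest decreases among called genes with a symbol and no overlap of light with dark arrays at any time. Called members of 27 gene lists were named too, and other members named without a call were chosen after their values were seen. The 597 listed genes (474 tested) include 14 matched by an older name, and 4 such matches were left out by hand. Genes and lists were chosen with earlier results of these data known. Promoter motifs planned for description were not analysed here.

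Light and dark deviations with the same replicate number correlated at -0.03, 0.03 and 0.02 at CT6, CT14 and CT22, so no pairing was seen over all probe sets. These values cannot show whether pools of the same number were handled together.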

Additional observations from a re-analysis of the deposited data

Results flagged for a closer look

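The size of the light effect differed between the 3 times for 14 of the 63 called genes followed by the moderated F test. Each of the 14 had 1 sign at all times, as all called genes did. Values are adjusted p. For heat shock genes they were 2.42e-05 for HSPA2, 5.41e-05 for BAG3, 0.00209 for DNAJA4, 0.0247 for HSPA8, 0.0326 for DNAJA1, 0.0415 for HSPA4L and 0.0497 for HSPB8. For ER genes they were 0.00151 for HERPUD1, 0.00593 for HSPA5 and 0.0285 for HSP90B1. For the others they were 0.00209 for LSG1, 0.00844 for PDE10A, 0.0159 for DIO3 and 0.0398 for EGR1. Of these heat shock and ER genes, 9 had their largest difference at CT22 and 1, HSPA8, at CT14, where it was 0.60 against 0.58 at CT22. The mean over times does not stand for all single times in these genes. For BAG3 it was 1.45, against 0.61, 1.16 and 2.59 at CT6, CT14 and CT22. In some it lay near the CT14 value, as in HSPA2 (1.28, against 1.27 at CT14). A further 6 genes named in the text passed this test: MACIR, called in the blocked fit (0.00193), and 5 that were not called there, HSPB9 (8.90e-09), BHLHE41 (0.00132), BHLHE40 (0.00885), AANAT (0.0146) and HSPH1 (0.0179). BHLHE40, BHLHE41 and AANAT did not keep 1 sign. Over all 474 listed genes tested, called or not, 37 passed, where 1.82% of all genes tested did.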

How the results depend on the processing

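Of 63 genes followed, none changed sign under any of the 25 alternatives, an outcome that their selection largely fixed. All were called genes with 1 sign at all 3 times, so leaving out a time could not reverse it. The filter, variance trend and block settings leave the estimate as it is. For the 25 leading genes, picked for no overlap at any time, leaving out 1 array could not reverse the sign either. Of the 63 genes, 15 kept their call under every alternative, among them 14 of the 25 leading genes: RAD54L2, LONRF3, LONRF1, CCSAP, LSG1, NFIL3, HMGCS1, INSIG1, FDFT1, BDNF, EGR1, NEDD9, MAFF and PHLDA2. The other was HSP90AA1. A further 7 leading genes lost it under 1 alternative. Counts depended on the model. With spread taken within 6 groups, 404 probe sets were higher and 281 lower. Without the time block they were 52 and 30, with 51 and 28 not overlapping at any time, 4 sterol genes, 1 heat shock gene and 0 ER genes, and limma's error then held the differences between times. Without a variance trend they were 132 and 55, with 131 and 54 not overlapping and 1 ER gene. The replicate block gave 117 and 48, with 114 and 45 not overlapping and 1 ER gene. The actin ratio as a covariate gave 146 higher, with 120 higher and 49 lower not overlapping (210 and 96 as reported) and 2 ER genes. The values as deposited gave 44 lower and 43 not overlapping, median centring 65 and 56, and no filter 68 lower and 2 ER genes. Without CT6 there were 145 higher, 71 lower and 3 ER genes, without CT14 134 higher, all not overlapping, and 3 ER genes, and without CT22 2 ER genes. The cause of these differences was not tested. Leaving out 1 array gave 146 to 218 higher, 64 to 107 lower, 144 to 207 higher and 62 to 102 lower not overlapping, 9 to 11 sterol, 11 to 15 heat shock and 3 to 5 ER genes. The counts moved by over 1.5 times without the second CT14 light array (146 and 70), the first CT22 light array (157 and 64), the first CT22 dark array (71 lower) and the second (68 lower). Calls lost most often were PDE6B and ADCY1 (20 of 25 alternatives) and DNAJB4 and CRY2 (19).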

Other observations

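Further called genes, picked after their values were seen, had light and dark arrays that did not overlap at any time. MELTF, a transferrin-like membrane protein gene, rose by 1.00 ± 0.08 (adjusted p = 2.07e-05). MACIR rose by 1.03 ± 0.14, and both of its probe sets passed. SPTSSB, a subunit of the enzyme that starts sphingolipid synthesis, rose by 0.87 ± 0.10 on its brighter probe set and 1.59 ± 0.21 on the other. TOB1, an antiproliferative factor gene, rose by 0.79 ± 0.11 (its second probe set gave 0.24 ± 0.09 and did not pass), and WEE1, a kinase that holds back cell division, by 0.48 ± 0.06. WEE1 had 429 to 622 on light and 312 to 424 on dark arrays. HDAC9, a class IIa histone deacetylase gene, rose by 0.59 ± 0.10, with 0.56, 0.62 and 0.58 at CT6, CT14 and CT22.

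The amino acid transporter genes SLC38A2 and SLC43A2 went opposite ways. SLC38A2 rose by 0.56 ± 0.07 (594 to 746 on light arrays, 420 to 523 on dark arrays), and SLC43A2 fell by 0.65 (49.2 to 98.3 on light arrays, 96.6 to 121 on dark arrays). FRMD4B fell by 0.58 with no overlap between all light and all dark arrays (813 to 1030 in light, 1060 to 1670 in the dark). FGFR3, a growth factor receptor gene, fell by 0.35 and VCAN, a matrix proteoglycan gene, by 0.34. For FEZ2, 2 dimmer probe sets fell by 1.02 and 1.05 while the brightest, which stands for the gene, gave 0.03 ± 0.12.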
